A study of Mus musculus with 12 samples.

Results

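Expression of 10 genes of the integrated stress response was examined in NIH 3T3 cells, an established mouse embryonic fibroblast line, after depletion of lamina-associated polypeptide 2 (Lap2) and after serum stimulation. The genes were listed by name and comprise the transcription factor ATF4 and genes known to lie downstream of it, namely Atf3, Atf4, Ddit3, Chac1, Trib3, Asns, Sesn2, Ddit4, Ppp1r15a and Vldlr. They are 10 of the 49671 gene identifiers counted in each library, and all 10 were among the 18668 genes that passed the filter on low counts and were tested. Cells were treated with control siRNA or with siRNA against total Lap2, whose isoforms all come from the gene Tmpo. They were either kept in 0.3% FBS (serum-starved) or given 15% FBS for 45 min (serum-stimulated), which gave 4 groups of 3 RNA-seq libraries each. All groups had the same genetic background and had been transfected with an siRNA, so no group consisted of untransfected cells. The Lap2 siRNA was a single sequence against the nucleoplasmic and the membrane-anchored isoforms together. The labels number the libraries of a group 1 to 3 without saying that they came from separate cultures, so the p-values measure the spread between these libraries, which may be technical.

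In the integrated stress response, kinases that sense amino acid shortage, unfolded protein, double-stranded RNA or haem shortage phosphorylate the translation initiation factor eIF2alpha. General protein synthesis then falls, while the mRNA for ATF4, a bZIP transcription factor, is translated more. ATF4 binds composite C/EBP-ATF elements with C/EBP partners and raises transcription of amino acid transporters, biosynthetic enzymes, tRNA synthetases and further regulators, among them the phosphatase subunit that restores translation. Several of its targets, Atf3 in particular, are also known as immediate-early genes of growth factor stimulation, and Ddit4 and Sesn2 restrain the growth kinase mTORC1.

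Because ATF4 acts through short elements near start sites, the promoters of the genes were searched for them. The RefSeq sequences (GRCm38.p6, 250 bases before to 50 after the start site) held a promoter for all 10 genes. The composite element, TGATGNAA read on both strands, was found in 5 of the 10 genes (Atf3, Chac1, Trib3, Asns and Vldlr), and in 3.97% of all 32851 promoters of the same length. The cAMP response element TGACGTCA, which reads the same on both strands, was found in Ppp1r15a alone among the 10 genes and in 1.79% of all promoters. No match overlapped another. The ER stress element and the CArG box bound by SRF were searched by name and matched none of the 10 genes, against 0.119% and 1.63% of all promoters. A match is a stretch of letters and not a measured binding site, and the lack of one covers this window only. The stretches around the matches are shown 5′ to 3′ on the strand of the gene, with the matched letters in capitals, because they show which of the genes carry the element and in which form.
Atf3, chr1:191183425-191183454, minus strand: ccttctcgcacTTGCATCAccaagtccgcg
Chac1, chr2:119351038-119351067, plus strand: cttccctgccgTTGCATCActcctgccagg
Vldlr, chr19:27216809-27216838, plus strand: agcagcaatagTTGCATCAgcgctcctagc
Trib3, chr2:152344028-152344057, minus strand: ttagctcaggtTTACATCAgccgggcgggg
Asns, chr6:7693214-7693243, minus strand: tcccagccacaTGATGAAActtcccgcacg
Ppp1r15a, chr7:45526262-45526291, minus strand: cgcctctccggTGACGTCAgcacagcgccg

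Atf3, Chac1 and Vldlr held the same 8 letters, TTGCATCA, which begin at position -110 from the start site of Atf3, -193 from that of Chac1 and -200 from the second of the RefSeq start sites of Vldlr. The Asns match begins at -23 and reads as the element on the coding strand, and that of Ppp1r15a at -12. That of Trib3 begins 15 bases after the RefSeq start site, which lies outside the Trib3 transcripts of the GENCODE M21 annotation. The whole 250 bases before the start site are given for Chac1 and Atf3, the genes with the largest serum responses among the 10.
Chac1, chr2:119350992-119351241, plus strand: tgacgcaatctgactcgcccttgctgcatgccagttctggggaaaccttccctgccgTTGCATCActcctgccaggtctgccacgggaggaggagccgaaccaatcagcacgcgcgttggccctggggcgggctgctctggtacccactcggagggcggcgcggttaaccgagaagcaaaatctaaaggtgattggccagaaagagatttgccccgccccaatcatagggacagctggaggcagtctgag
Atf3, chr1:191183334-191183583, minus strand: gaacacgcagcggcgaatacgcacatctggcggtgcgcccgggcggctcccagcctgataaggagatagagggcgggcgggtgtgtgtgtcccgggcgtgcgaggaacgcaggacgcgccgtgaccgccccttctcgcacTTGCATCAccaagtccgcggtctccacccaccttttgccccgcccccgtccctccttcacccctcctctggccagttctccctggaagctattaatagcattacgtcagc

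The libraries held 18026298 to 26265253 counted reads. Tmpo, the target of the siRNA, was at 2775 to 2885 normalized counts (counts brought to a common library size after TMM scaling) in starved and 3019 to 3264 in stimulated cells with control siRNA, and at 982 to 1175 and 607 to 767 in Lap2-depleted cells. Its level was thus 2.61-fold lower in 0.3% FBS and 4.50-fold lower in 15% FBS. The 9 fibroblast markers were all abundant, and their summed normalized counts were 864739 to 982996 in the control siRNA libraries and 523784 to 710730 in the Lap2 siRNA libraries. After Lap2 depletion 7 of these markers were lower and 1 (Fn1, log2FC 0.37) was higher in 0.3% FBS, and 8 were lower in 15% FBS, while 18.6% and 12.1% of all genes tested were lower and 17.8% higher in 0.3% FBS, and the part of this difference in the results below was not tested. The 10 epithelial, endothelial and blood cell markers summed to between 52.0 and 90.1 normalized counts in every library, Krt18 had no count in any, and edgeR called none of the 6 that could be tested in any comparison. These are bulk libraries, in which fewer cells expressing a gene and less RNA per cell cannot be told apart. Replicate 3 of serum-stimulated Lap2-depleted cells was the highest library of its group for 7 of the 10 genes. It was the highest for 40.6% of the 10449 genes that averaged 100 normalized counts or more. Chac1 was 0.74, Trib3 0.42, Ddit3 0.39 and Atf4 0.35 higher in that library on the log2 scale than in the other libraries of the group. Calls of the 10 genes that changed without that library are given with and without it. Uneven standing was not particular to it. Replicate 3 of serum-stimulated control siRNA treated cells was the lowest of its group for 7 of the 10 genes, and for 43.5% of the 10449. Replicate 1 of starved control siRNA treated cells was the highest of its group for 6 of the 10 genes, and for 37.4% of the 10449.

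Levels between genes were compared as RPKM (reads scaled to exon length and to the TMM-scaled library size). In serum-starved control siRNA treated cells the most abundant of the mRNAs was that of Atf4, at 69.4 ± 4.76 (SD, n = 3 here and below), followed by Ddit4 at 34.8 ± 0.911, Asns at 19.0 ± 1.02, Ddit3 at 16.5 ± 0.677 and Sesn2 at 11.3 ± 0.804. Ppp1r15a at 7.05 ± 0.575 came next, then Trib3 at 3.16 ± 0.544, Chac1 at 2.77 ± 0.355, Vldlr at 2.01 ± 0.0344 and Atf3 at 1.04 ± 0.253. Trib3 and Chac1 did not differ beyond their spread. In serum-stimulated control siRNA treated cells Atf4 remained first, at 179 ± 7.62, whereas Atf3 moved from last place to second, at 53.8 ± 5.56. Vldlr was then last, at 1.45 ± 0.135.

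**Figure D1:**
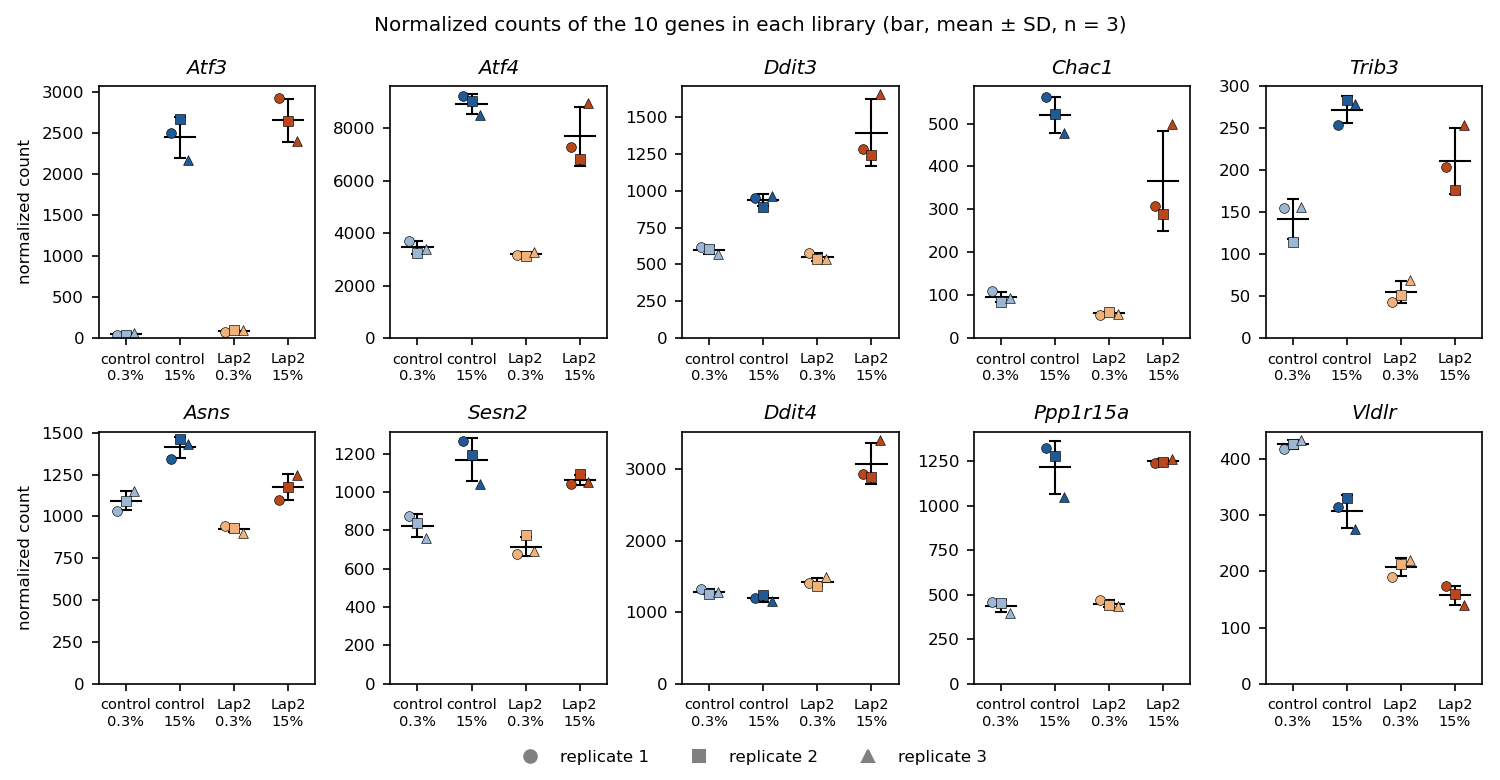
Normalized counts (vertical axis, from 0, linear) of the 10 genes in each of the 12 libraries, by siRNA and FBS (horizontal axis); points are libraries and bars the mean ± SD of 3. Ddit4 lies between 2887 and 3403 in the serum-stimulated Lap2-depleted libraries and at or below 1485 in all others, while Vldlr is lower in every Lap2 siRNA library than in every control siRNA library.

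Serum stimulation for 45 min raised most of the genes with either siRNA. In control siRNA treated cells 8 of the 10 genes rose (edgeR, adjusted p under 0.05), 1 fell (Vldlr) and 1 was not called (Ddit4), while 15.6% of all genes tested rose and 13.9% fell. The median log2 fold change (log2FC) of the 10 genes was 0.80, against -0.01 over all genes. In Lap2-depleted cells 9 genes rose and Vldlr fell, against 18.3% and 14.9% of all genes, with a median log2FC of 1.31 against 0.00. The libraries of the compared groups did not overlap for any of the 10 genes in either comparison, which held for 42.0% of all genes tested in control siRNA treated cells and for 41.7% in Lap2-depleted cells. With total counts in place of TMM the all-gene median shifted by -0.21 and -0.23 in these comparisons, and the rise of Asns was no longer called in either.

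**Figure D2:**
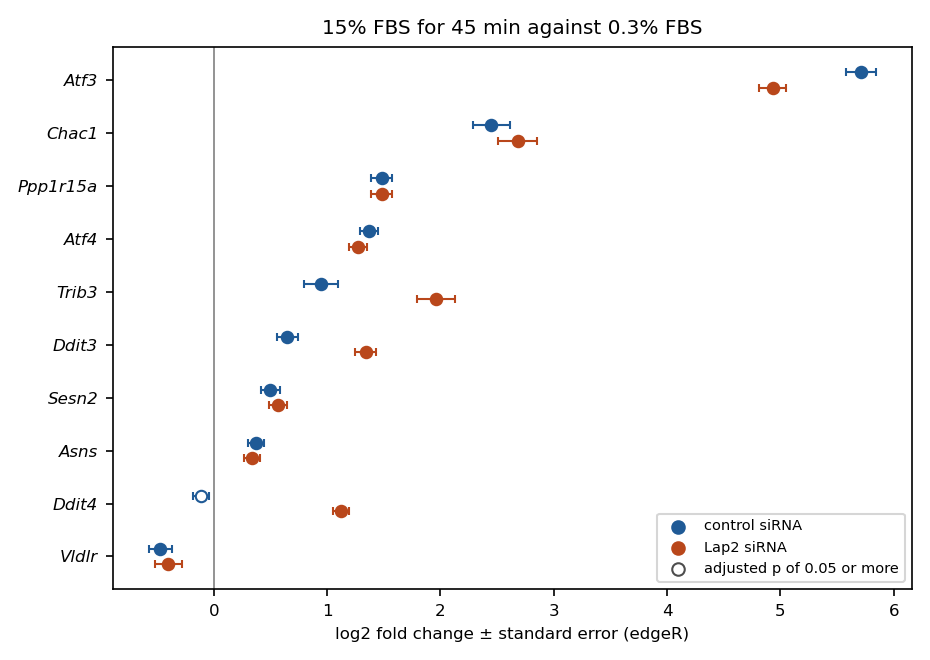
Log2 fold changes between serum-stimulated and serum-starved cells (horizontal axis; bars are standard errors) for each of the 10 genes, with control siRNA and Lap2 siRNA; open points have an adjusted p of 0.05 or more. Atf3 responds most with either siRNA, and the points for Trib3, Ddit3 and Ddit4 lie further to the right with Lap2 siRNA.

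Lap2 depletion changed the genes in different directions. In 0.3% FBS Atf3 was higher and 5 genes were lower (Trib3, Vldlr, Chac1, Asns and Sesn2), while 4 were not called; 17.8% of all genes tested were higher and 18.6% lower. The share of the 10 genes called lower is 5 of 10, and their median log2FC was -0.16 against 0.01 over all genes. In 15% FBS Ddit4 and Ddit3 were higher, 4 genes were lower (Vldlr, Chac1, Asns and Atf4) and 4 were not called, with 11.4% of all genes higher and 12.1% lower, and the median log2FC was -0.18 against 0.02. Groups did not overlap for 6 of the 10 genes in 0.3% FBS and for 5 in 15% FBS, against 43.4% and 38.8% of all genes, so these shares were not far from those of genes at large. The comparisons in 15% FBS depended on single libraries. Of the 10 genes 3 were called without replicate 1 of the serum-stimulated Lap2-depleted cells, 4 without replicate 2 and 7 without replicate 3. Among all genes 3752 of 18520, 3637 of 18508 and 3410 of 18460 were called in these settings. With all libraries 4375 of 18668 were called.

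Whether the serum response itself differed between the siRNAs was tested as an interaction. The response was larger in Lap2-depleted cells for Ddit4, Trib3 and Ddit3 and smaller for Atf3, and these 4 of 10 calls remained whichever library was left out and under the other alternatives run. Among all genes tested, 7.09% had a larger and 6.51% a smaller response. Since the comparisons use the same 12 libraries, the interaction and the single contrasts are not independent of each other.

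**Figure D3:**
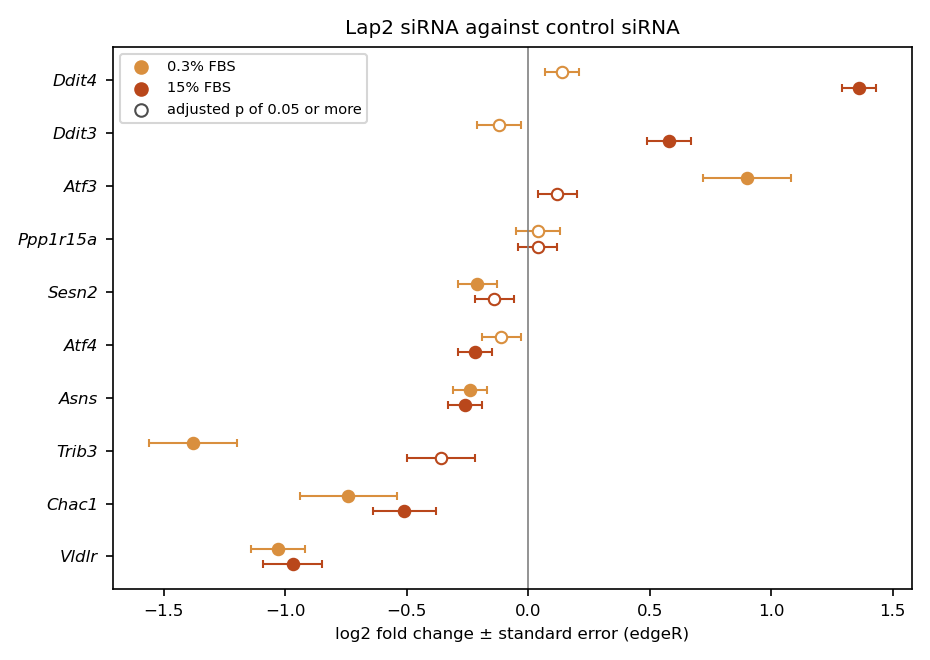
Log2 fold changes between Lap2 siRNA and control siRNA (horizontal axis; bars are standard errors) for each of the 10 genes in 0.3% and in 15% FBS; open points have an adjusted p of 0.05 or more. Ddit4 and Ddit3 lie to the right in 15% FBS, Atf3 in 0.3% FBS, and Vldlr lies near -1.03 and -0.97 in the respective conditions.

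Among the transcription factors, Atf4 (chr15:80255184-80257541, plus strand, GENCODE M21 on GRCm38, as for all gene positions here) encodes the central factor of the response. Its normalized counts with control siRNA were 3711, 3246 and 3399 under starvation and 9225, 9050 and 8499 after stimulation. In Lap2-depleted cells they were 3165, 3133 and 3295 in 0.3% FBS and 7288, 6812 and 8960 in 15% FBS. All stimulated libraries therefore lay above all starved ones, and replicate 3 of the stimulated Lap2-depleted cells lay within the control siRNA range. Serum raised the mRNA with control siRNA (log2FC 1.37 ± 0.08, standard error as for all log2FC here; edgeR adjusted p = 2.7e-16) and with Lap2 siRNA (1.27 ± 0.08; adjusted p = 3.0e-15). Lap2 depletion was not called in 0.3% FBS (log2FC -0.11, 95% interval -0.29 to 0.07). In 15% FBS the level was slightly lower (log2FC -0.22 ± 0.07; edgeR adjusted p = 0.033). That call was lost without replicate 1 or 2 of either serum-stimulated group and with total counts (-0.13; adjusted p = 0.22), and the log2FC was -0.35 (adjusted p = 3.2e-04) without replicate 3 of the Lap2-depleted cells. The measurement is of mRNA, and the translation of Atf4, through which the response is known to act, was not measured.

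Atf3 (chr1:191170296-191218039, minus strand) encodes a bZIP repressor and activator induced by many stresses and by growth factors. It was the most serum-responsive of the 10 genes. Starved control siRNA treated cells had 41.2, 39.9 and 60.4 normalized counts, and stimulated ones 2500, 2665 and 2169, a 52.4-fold increase (log2FC 5.71 ± 0.13; edgeR adjusted p = 1.7e-27). Lap2-depleted cells had 71.6, 98.8 and 91.7 when starved and 2927, 2639 and 2402 when stimulated, a 30.5-fold increase (log2FC 4.93 ± 0.12; edgeR adjusted p = 1.2e-26). The smaller fold in Lap2-depleted cells went with a higher starved level, which did not overlap with that of control siRNA treated cells (log2FC 0.90 ± 0.18; edgeR adjusted p = 1.4e-04), whereas the stimulated levels overlapped (log2FC 0.12, 95% interval -0.08 to 0.31; edgeR adjusted p = 0.37). The interaction was -0.78 ± 0.20 on the log2 scale (edgeR adjusted p = 0.0065).

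Ddit3 (chr10:127290774-127296288, plus strand) encodes CHOP, a C/EBP family factor downstream of ATF4 that promotes cell death in prolonged stress. Its starved levels were 620, 601 and 572 normalized counts with control siRNA, against 580, 533 and 534 in Lap2-depleted cells, which overlapped. Stimulated levels were 954, 889 and 964 with control siRNA, against 1281, 1244 and 1655 in Lap2-depleted cells, so that every Lap2-depleted library lay above every control siRNA library. Serum raised Ddit3 by a log2FC of 0.65 ± 0.09 with control siRNA (edgeR adjusted p = 5.1e-07) and of 1.34 ± 0.09 with Lap2 siRNA (adjusted p = 3.9e-14), and the difference was called (0.70 ± 0.13; adjusted p = 1.5e-04). In 15% FBS the level was 1.49-fold higher in Lap2-depleted cells (log2FC 0.58 ± 0.09; edgeR adjusted p = 3.9e-06), and the log2FC was 0.42 (adjusted p = 2.4e-04) without the high replicate 3. In 0.3% FBS it was not called (-0.12, 95% interval -0.34 to 0.09).

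Other genes overlap some of the 10 in the annotation: Gm24748 overlaps Atf3, Gm4189 and Mars overlap Ddit3, and Tulp2 overlaps Ppp1r15a on the opposite strand, while Gm12981 overlaps Sesn2 and a separate entry also named Ddit3 overlaps Ddit3 on the same strand. The library kit keeps the strand, but the strand setting used in counting is not given in the sources used here. Whether reads in the overlaps were counted for the gene, for its partner or for neither is therefore not known.

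Asns, Chac1 and Vldlr act outside transcription. Asns (chr6:7675169-7693254, minus strand) encodes asparagine synthetase, the textbook target of ATF4 in amino acid shortage. It had 1035, 1095 and 1153 normalized counts in starved and 1340, 1465 and 1430 in stimulated control siRNA treated cells, and 941, 933 and 903 and then 1096, 1178 and 1250 in Lap2-depleted cells. The differences were small but the groups did not overlap in any of the 4 comparisons. Serum raised Asns by a log2FC of 0.37 ± 0.07 with control siRNA and 0.34 ± 0.07 with Lap2 siRNA (edgeR adjusted p = 1.0e-04 and 2.8e-04). Lap2 depletion lowered it by a log2FC of -0.24 ± 0.07 in 0.3% and -0.26 ± 0.07 in 15% FBS (edgeR adjusted p = 0.0083 and 0.0057). With total counts none of these was called (0.16, 0.11, -0.13 and -0.18). The lower level was also not called in 0.3% FBS without replicate 3 of the starved control siRNA treated cells (adjusted p = 0.082), or in 15% FBS without replicate 1 of the Lap2-depleted cells (adjusted p = 0.054).

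Chac1 (chr2:119351229-119354381, plus strand) encodes an enzyme that degrades glutathione. It was the second most serum-responsive of the 10 genes, rising from 109, 84.9 and 92.8 to 561, 522 and 477 normalized counts with control siRNA and from 54.2, 61.4 and 55.6 to 307, 289 and 499 with Lap2 siRNA. These are increases of 5.46-fold (log2FC 2.45 ± 0.16; edgeR adjusted p = 9.4e-15) and 6.43-fold (log2FC 2.68 ± 0.17; edgeR adjusted p = 1.7e-14), and the interaction was not called (0.24, 95% interval -0.32 to 0.79). Without replicate 3 of the stimulated Lap2-depleted cells, the serum response with Lap2 siRNA was a log2FC of 2.37. The interaction was then -0.07 and not called. Every starved Lap2-depleted library was below every starved control siRNA library (log2FC -0.74 ± 0.20, edgeR adjusted p = 0.0034). After stimulation, replicates 1 and 2 of the Lap2-depleted cells were below all control siRNA libraries but replicate 3 was not. The log2FC of -0.51 ± 0.13 (edgeR adjusted p = 0.0051) became -0.82 (adjusted p = 5.9e-06) without replicate 3, and was not called without replicate 1 (-0.40; adjusted p = 0.055) or replicate 2 (-0.36; adjusted p = 0.073).

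Vldlr (chr19:27216484-27254231, plus strand) encodes the very low density lipoprotein receptor, a target of ATF4 in ER stress. It fell with serum, the only one of the 10 genes called lower in these comparisons with TMM scaling, from 418, 427 and 433 to 314, 331 and 275 normalized counts with control siRNA (log2FC -0.47 ± 0.10; edgeR adjusted p = 5.5e-04) and from 190, 214 and 221 to 174, 159 and 140 with Lap2 siRNA (log2FC -0.40 ± 0.12; edgeR adjusted p = 0.0082). The latter call was lost without replicate 3 of the stimulated Lap2-depleted cells (-0.33; adjusted p = 0.055). The level in Lap2-depleted cells was 2.04-fold below control siRNA treated cells when starved (log2FC -1.03 ± 0.11; edgeR adjusted p = 1.9e-09) and 1.95-fold below them when stimulated (log2FC -0.97 ± 0.12; edgeR adjusted p = 7.1e-08). The 6 Lap2 siRNA libraries all lay below the 6 control siRNA libraries. The interaction was not called, with a 95% interval of -0.30 to 0.43.

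The remaining genes encode regulators that feed back on stress signalling or restrain growth signalling. Ppp1r15a (chr7:45522916-45526268, minus strand) encodes GADD34, which directs a phosphatase to eIF2alpha. With control siRNA it had 461, 453 and 396 normalized counts in 0.3% FBS and 1322, 1280 and 1046 in 15% FBS, and with Lap2 siRNA 470, 441 and 435 and then 1241, 1246 and 1260. The serum response was 2.78-fold with either siRNA (log2FC 1.48 ± 0.09 in each; edgeR adjusted p = 1.0e-15 and 1.4e-15). The siRNA groups overlapped in each condition, with a 95% interval of -0.17 to 0.25 for the log2FC in 0.3% FBS and of -0.15 to 0.22 in 15% FBS, and of -0.28 to 0.28 for the interaction. Of the 10 genes, Ppp1r15a thus had the Lap2 effects nearest to 0.

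Trib3 (chr2:152337422-152344032, minus strand) encodes a pseudokinase that is induced by ATF4 and CHOP and inhibits them. Its normalized counts were 155, 114 and 156 in starved control siRNA treated cells but 43.2, 51.0 and 69.0 in starved Lap2-depleted cells, which is 2.60-fold lower (log2FC -1.38 ± 0.18; edgeR adjusted p = 1.5e-07). After stimulation they were 254, 283 and 279 with control siRNA, against 203, 176 and 253 in Lap2-depleted cells. The stimulated groups touched, with 253 as the highest Lap2 siRNA value against 254 as the lowest control siRNA value, and the log2FC of -0.36 ± 0.14 was not called (edgeR adjusted p = 0.068). It was not called in 13 of the 20 alternatives and called lower in 7, and over all 20 the log2FC ran from -0.53 (adjusted p = 0.016, without replicate 3 of the Lap2-depleted cells) to -0.25 (adjusted p = 0.32, without their replicate 2). The serum response was a log2FC of 0.95 ± 0.15 with control siRNA (edgeR adjusted p = 4.3e-06) and of 1.96 ± 0.17 with Lap2 siRNA (adjusted p = 4.7e-11). The interaction of 1.02 ± 0.23 (edgeR adjusted p = 0.0022) was 0.85 (adjusted p = 0.012) without replicate 3.

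Sesn2 (chr4:132492032-132510501, minus strand) encodes Sestrin2, a leucine sensor that restrains mTORC1. With control siRNA its normalized counts were 876, 837 and 760 in 0.3% FBS and 1267, 1195 and 1044 in 15% FBS, and with Lap2 siRNA 679, 774 and 693 and then 1040, 1094 and 1053. Serum raised it by a log2FC of 0.50 ± 0.08 with control siRNA (edgeR adjusted p = 5.1e-06) and of 0.57 ± 0.08 with Lap2 siRNA (adjusted p = 8.4e-07). The starved siRNA groups overlapped, and the lower level in Lap2-depleted cells (log2FC -0.21 ± 0.08; edgeR adjusted p = 0.048) was called in only 9 of the 20 alternatives. In 15% FBS it was not called (-0.14, 95% interval -0.32 to 0.04).

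Ddit4 (chr10:59949669-59951834, minus strand) encodes REDD1, an inhibitor of mTORC1. It showed the largest effect of Lap2 depletion among the 10 genes in 15% FBS. Its normalized counts were 1322, 1255 and 1286 in starved and 1194, 1244 and 1149 in stimulated control siRNA treated cells, a log2FC of -0.11 ± 0.07 that was not called (edgeR adjusted p = 0.31). It was called lower with total counts (-0.31; adjusted p = 6.3e-04) and with upper-quartile scaling (-0.20; adjusted p = 0.025). In Lap2-depleted cells the counts rose from 1405, 1368 and 1485 to 2932, 2887 and 3403 (log2FC 1.12 ± 0.07; edgeR adjusted p = 7.8e-15). The stimulated Lap2-depleted libraries lay above every other library of the series, 2.57-fold above the stimulated control siRNA treated cells on average (log2FC 1.36 ± 0.07; edgeR adjusted p = 7.7e-16). By p-value this was the 12th of the 18668 genes tested in that comparison. The interaction of 1.22 ± 0.10 (edgeR adjusted p = 9.2e-11) was the largest of the 10 genes. In 0.3% FBS the log2FC was 0.14 ± 0.07, not called (edgeR adjusted p = 0.13), although the groups did not overlap, and was called higher with total counts (0.25; adjusted p = 0.005).

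The other genes of the pathway were followed in 7 lists, described by counts beside the shares of all genes tested that were called, with no test of a list. Of the 11 ATF4-target amino acid transporters, 3 were higher and 4 lower in Lap2-depleted cells in 0.3% FBS, and 1 was higher and 5 lower in 15% FBS. Over all genes 17.8% were higher and 18.6% lower in 0.3% FBS, and 11.4% and 12.1% in 15% FBS. Slc7a5, the large neutral amino acid transporter, was the most affected in 0.3% FBS, at 1793 ± 188 normalized counts with control siRNA and 718 ± 103 with Lap2 siRNA (log2FC -1.32; edgeR adjusted p = 2.9e-14). In 15% FBS it was at 2866 ± 56.4 and 1842 ± 85.8 (log2FC -0.64; edgeR adjusted p = 1.8e-07). Slc7a5 responded more to serum in Lap2-depleted cells (interaction 0.68; edgeR adjusted p = 6.3e-05), and the arginine transporter Slc7a1 responded less (-0.67; edgeR adjusted p = 5.7e-05). The list had 2 larger and 3 smaller responses, against 7.09% and 6.51% of all genes. Slc7a1 and Slc38a2 were higher in Lap2-depleted cells in 0.3% FBS (0.41 and 0.43). Slc3a2, the heavy chain partner of Slc7a5, was lower in 0.3% FBS (-0.46), and the glutamine transporter Slc1a5 was lower in both conditions (-0.82 and -0.54). Slc38a2, a neutral amino acid transporter known as an ATF4 target, fell with serum with either siRNA (log2FC -1.03 and -1.13).

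The tRNA synthetase list holds 13 genes and includes the tRNA exporter Xpot. In Lap2-depleted cells in 0.3% FBS 7 were higher and 0 lower, with a median log2FC of 0.20. All genes tested gave 17.8% higher and 18.6% lower. With total counts 9 of the list were higher and 0 lower, against 4692 and 2638 of the 18668 genes tested. Cars (0.48), Mars1 (0.34) and Nars (0.33) led the 7 called with TMM scaling. In 15% FBS 0 were higher and 2 lower in edgeR (Cars -0.32 and Aars -0.20), near the 12.1% of all genes that were lower there (11.4% higher). This count was 0 with total counts, with which 1678 of the 18668 genes tested were lower. It was 0 without replicate 2 of the stimulated Lap2-depleted cells, and 1 without their replicate 1. The serum response was smaller in Lap2-depleted cells for 5 of the 13 and larger for 0, led by Cars (interaction -0.80; edgeR adjusted p = 2.7e-05), and for 2 of the 13 without replicate 2 of either stimulated group, while 6.51% of all genes had a smaller response and 7.09% a larger one. This direction was opposite to that of Trib3, Ddit3 and Ddit4. In control siRNA treated cells 7 rose with serum and 0 fell, against 15.6% and 13.9% of all genes. In Lap2-depleted cells 2 rose and 1 fell, against 18.3% and 14.9%, but between 1 and 7 were called over the alternatives. With total counts 0 rose and 7 fell, against 1658 and 5951 of the 18668 genes tested.

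Among the 13 tested genes of amino acid and one-carbon synthesis, 5 were higher and 3 lower in Lap2-depleted cells in 0.3% FBS, and 1 was higher and 4 lower in 15% FBS. The all-gene shares were 17.8% and 18.6% in 0.3% FBS and 11.4% and 12.1% in 15% FBS, so that 3 of 13 lower in 0.3% FBS and 1 of 13 higher in 15% FBS were near them. Gpt2, an alanine transaminase, was lower in both (-0.80 and -0.43), Shmt2, the mitochondrial serine hydroxymethyltransferase, was higher in 0.3% FBS (0.63), and Phgdh, the first enzyme of serine synthesis, was lower in both (-0.38 and -0.50). Mthfd2, a mitochondrial folate enzyme, rose with serum by a log2FC of 1.27 with control siRNA and 0.60 with Lap2 siRNA, and the difference was called (-0.67; edgeR adjusted p = 5.4e-04). With serum 3 genes of this list rose and 2 fell with control siRNA, against 15.6% and 13.9% of all genes. With total counts 1 rose and 5 fell, against 1632 and 5847 of the 18668 genes tested. Without replicate 3 of the stimulated control siRNA treated cells 3 were called in all.

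Of the 16 tested bZIP factors, 3 were higher and 8 lower in Lap2-depleted cells in 0.3% FBS, and 4 were higher and 5 lower in 15% FBS. All genes tested gave 17.8% and 18.6% in 0.3% FBS, where the 3 of 16 higher were near that share, and 11.4% and 12.1% in 15% FBS. Atf5, a stress-induced relative of Atf4, was at 2445 ± 116 normalized counts with control siRNA and 1098 ± 69.0 with Lap2 siRNA in 0.3% FBS (log2FC -1.15; edgeR adjusted p = 2.5e-15), and was lower in 15% FBS too (-0.62; adjusted p = 9.3e-09). Cebpb, a C/EBP partner of ATF4, was higher in 15% FBS (0.53; edgeR adjusted p = 1.1e-07). The immediate-early AP-1 genes Fos (6.67), Fosl1 (5.40) and Junb (4.07) rose strongly with serum by log2FC in control siRNA treated cells, and with Lap2 siRNA the values were 6.63, 3.59 and 4.94. The response was smaller in Lap2-depleted cells for Fosl1 (-1.81; edgeR adjusted p = 2.4e-11), which like Atf3 had a higher starved level there (log2FC 1.62), and larger for Junb (0.86; adjusted p = 8.4e-09).

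Of the 12 genes for eIF2alpha kinases, eIF2 and phosphatase subunits, 2 were higher and 2 lower in Lap2-depleted cells in 0.3% FBS. With total counts 6 were higher and 1 lower, against 4692 and 2638 of the 18668 genes tested. The 2 and 2 called with TMM scaling were near the 17.8% and 18.6% of all genes. The kinase PERK, encoded by Eif2ak3, was lower (-0.33; edgeR adjusted p = 3.8e-04), and Eif2s1, encoding eIF2alpha, was higher (0.36; adjusted p = 4.8e-05). In 15% FBS 2 were higher and 1 lower, near the 11.4% and 12.1% of all genes, and 1 was called in all without replicate 3 of the Lap2-depleted cells. The lower gene was Ppp1r15b, the constitutive counterpart of Ppp1r15a, at 7633 ± 161 normalized counts with control siRNA and 5649 ± 135 with Lap2 siRNA (log2FC -0.43; edgeR adjusted p = 7.3e-07). Its serum response was 1.71 with control and 1.32 with Lap2 siRNA, and was called smaller in Lap2-depleted cells (-0.39; edgeR adjusted p = 0.0013).

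Among the 20 ER chaperone and unfolded protein response genes, 5 were higher and 5 lower in Lap2-depleted cells in 0.3% FBS (3 and 3 without replicate 2 of the starved Lap2-depleted cells), against 17.8% and 18.6% of all genes. In 15% FBS 1 was higher and 12 were lower, against 11.4% and 12.1% of all genes. The median log2FC was -0.20, against 0.02 over all genes. The ER chaperone Hsp90b1 (-0.49; edgeR adjusted p = 6.4e-08) and Sel1l of the ER-associated degradation complex (-0.49; adjusted p = 7.3e-07) had the largest log2FC, and both were also lower in 0.3% FBS (-0.20 and -0.44). Without replicate 3 of the stimulated control siRNA treated cells, 7 of the 20 genes were lower. With total counts 3 were higher and 6 lower in 15% FBS, against 3471 and 1678 of the 18668 genes tested. With control siRNA serum raised 9, including the chaperone Hspa5 (0.55), and lowered 1, against 15.6% and 13.9% of all genes. With Lap2 siRNA it raised 6 and lowered 4, against 18.3% and 14.9%. These became 4 and 1 without replicate 1 of the stimulated Lap2-depleted cells. With total counts they were 2 and 13, against 1658 and 5951 of the 18668 genes tested.

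Of the 23 other tested targets of ATF4 or CHOP, 3 were higher and 9 lower in Lap2-depleted cells in 0.3% FBS, and 5 were higher and 4 lower in 15% FBS. The all-gene shares were 17.8% and 18.6%, and 11.4% and 12.1%, so that the 3 of 23 higher in 0.3% FBS and the 4 of 23 lower in 15% FBS were near them. Txnip, an inhibitor of thioredoxin and of glucose uptake, fell with serum in control siRNA treated cells from 4854 ± 566 to 749 ± 43.0 normalized counts (log2FC -2.69; edgeR adjusted p = 2.4e-21). It was already at 1666 ± 157 in starved Lap2-depleted cells (log2FC -1.54; edgeR adjusted p = 5.9e-15), and its response differed by 1.74 (adjusted p = 4.2e-11). Bcl2l11, encoding the pro-apoptotic BIM, was lower in 0.3% and in 15% FBS (-1.15 and -0.58). Tnfrsf10b, encoding a death receptor that CHOP induces, was lower in 0.3% FBS (-0.38). In 15% FBS it was at 0.499 of the control siRNA level (edgeR adjusted p = 7.3e-13). Atg12 was higher in Lap2-depleted cells in both conditions (0.52 in 0.3% and 0.71 in 15% FBS). Gadd45b and Vegfa were higher there in 15% FBS (0.39 each), and Vegfa was lower in 0.3% FBS (-0.43). Gadd45b (3.82 and 4.30) and Vegfa (1.87 and 2.69) rose with serum with either siRNA.

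**Figure D4:**
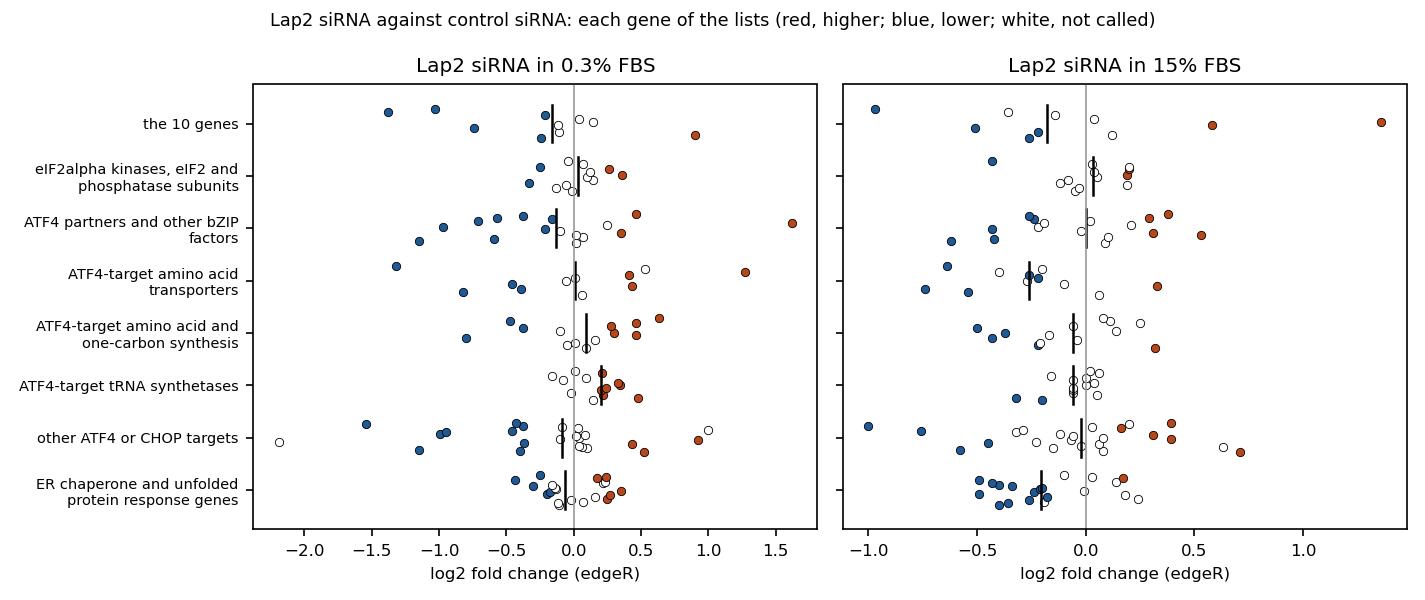
Log2 fold change between Lap2 siRNA and control siRNA (horizontal axis) of each tested gene in the 10-gene list and the 7 pathway lists, in 0.3% FBS (left) and 15% FBS (right); filled points passed an adjusted p of 0.05 and vertical bars are list medians. Most lists hold higher and lower genes in each condition. The most one-sided are the tRNA synthetases in 0.3% FBS and the ER chaperone list in 15% FBS. The former had 7 higher and 0 lower, against 17.8% and 18.6% of all genes. The latter had 1 higher and 12 lower, against 11.4% and 12.1% of all genes. With total counts the latter had 3 and 6, against 3471 and 1678 of the 18668 genes tested.

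Across the 12 libraries, the pattern of log2 CPM (counts scaled to library size) was most alike between Atf4 and Chac1 among pairs of the 10 genes (Pearson r = 0.99) and least alike between Ddit4 and Vldlr (r = -0.78). These points share the 4 groups and the serum step, so the values describe the pattern and carry no test. Among the 10448 other genes that averaged 100 normalized counts or more, those most like Atf4 were Irak2 (r = 0.995), Nt5c2 (0.994) and Insig1 (0.993). Those most like Atf3 were Zc3h12a (0.998), Zfp36l2 (0.997) and Zfp281 (0.997), and those most like Ddit3 were Foxc2 (0.982), Fem1b (0.980) and Tbcc (0.978).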

How the data were processed

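RNA-seq was made from total RNA of 12 NIH 3T3 samples after rRNA removal, with a directional kit. The deposited values are raw read counts by gene, obtained by the authors with TopHat2, aligned to mm10 (GRCm38), and HTSeq; versions, the annotation and the strand setting are not given in the sources used here. Of the 49671 Ensembl identifiers in each library 99.3% could be given a symbol, and no 2 libraries held identical values (0 pairs).

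Differential expression was computed from the counts with edgeR 4.0.16 in R 4.3.3 (TMM, glmQLFit and glmQLFTest, 1 mean per group over all 12 libraries, no block), for 18668 genes whose count exceeded 1 in 3 or more libraries, with Benjamini-Hochberg adjustment over all of them. Intervals of 95% used the standard error and 8 residual degrees of freedom. Depths of 18026298 to 26265253 counts bound the precision of low genes such as Atf3. Alternatives were total-count and upper-quartile scaling, DESeq2 1.42.0, 3 other filters, only the groups compared, a replicate block and each library left out. On data simulated for Lap2 siRNA in 0.3% FBS, 96% of 200 genes with a log2FC of 1 among 18085 were recovered.

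The 10 genes and the lists were chosen with earlier results of these data known. From the other lists, up to 3 genes per comparison with the largest log2FC were eligible for naming, given an adjusted p under 0.05 and a mean of at least 100 normalized counts. Likeness used log2 CPM with a prior count of 2. Positions and exon lengths came from GENCODE M21, promoters from RefSeq. Tables and plots used Python, pandas and matplotlib.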

Additional observations from a re-analysis of the deposited data

Results flagged for a closer look

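The serum response of 4 of the 10 genes differed between the siRNAs by the test of the difference itself (the interaction, edgeR adjusted p under 0.05). Over all genes tested, 7.09% had a larger response in Lap2-depleted cells and 6.51% a smaller one. On the log2 scale the response in Lap2-depleted cells minus that in control siRNA treated cells was -0.78 for Atf3, 0.70 for Ddit3, 1.02 for Trib3 and 1.22 for Ddit4. For Atf3 and Trib3 the siRNA groups differed in 0.3% FBS and were not called in 15% FBS, although those of Trib3 did not overlap there and were called lower in 7 of 20 alternatives (log2FC -0.53 to -0.25, adjusted p 0.016 to 0.32), and for Ddit3 and Ddit4 they differed in 15% FBS and were not called in 0.3% FBS. Without replicate 3 of the serum-stimulated Lap2-depleted cells, the library that was highest for 7 of the 10 genes, the values were -0.72, 0.55, 0.85 and 1.13, each with an adjusted p under 0.05.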

How the results depend on the processing

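Over 990 values of the 10 genes in 5 comparisons under the alternatives, 940 kept their direction and call, 25 lost and 10 gained a call, and 15 changed sign, none of them called. The sign changes were Ppp1r15a when libraries were left out (-0.01 to 0.09 in 0.3% FBS, -0.06 to 0.09 in 15% FBS) and, for the interaction over the libraries left out, ranges of -0.09 to 0.06 for Ppp1r15a, -0.09 to 0.02 for Asns, -0.03 to 0.14 for Vldlr, -0.07 to 0.38 for Chac1 and -0.00 to 0.12 for Sesn2. With a library left out, 9 genes were called for serum with control siRNA, 9 to 10 with Lap2 siRNA, 5 to 6 for Lap2 siRNA in 0.3% FBS, 3 to 7 in 15% FBS and 4 for the interaction. Of all genes, 18427 to 18520 were tested in these settings. In the same order 4713 to 6343, 5279 to 6466, 5924 to 7019, 3410 to 5177 and 1886 to 3529 of them were called. Same-numbered libraries of different groups did not deviate together (r from -0.03 to 0.04, 0 of 18 pairs over 0.1). A shared culture or day need not leave such a deviation, so whether the numbers pair the libraries cannot be told from this. With a replicate block, 7 in place of 6 genes were called in 15% FBS (Trib3, -0.38, edgeR adjusted p = 0.032), and the interaction of Ppp1r15a was 0.00. Over all genes 4343 in place of 4375 were called in 15% FBS with the block. Scaling by total counts turned the split of higher and lower genes over all genes from 2915 and 2597 to 1632 and 5847 (serum, control siRNA), from 3420 and 2777 to 1658 and 5951 (serum, Lap2 siRNA), from 3330 and 3480 to 4692 and 2638 (Lap2 siRNA, 0.3% FBS) and from 2125 and 2250 to 3471 and 1678 (15% FBS), and upper-quartile scaling gave 2183 and 3878, and 2383 and 3942, for serum. Of the pathway lists, total counts moved the calls from 5 to 8 (eIF2 list, serum, Lap2 siRNA), 4 to 7 and 3 to 5 (eIF2 list, Lap2 siRNA in 0.3% and 15% FBS) and 2 to 0 (tRNA synthetases, 15% FBS), and DESeq2 moved the ER chaperone interaction from 5 to 8. The tRNA synthetases in the serum response of Lap2-depleted cells went from 3 to 7 with total counts, 6 with upper-quartile scaling or DESeq2, 5 with either stricter filter and 1 with only the groups compared. With a library left out, the interaction calls went as low as 1 (eIF2 list and ER chaperones, from 2 and 5). The interaction needs all groups, so it has no value with only the groups compared. The cause was not tested.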
